A study of Arabidopsis thaliana with 12 samples.

Results

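The genes described here are those behind the brightest spots of an Arabidopsis thaliana array that can be tied to a single gene. A gene was taken when its probe was annotated to exactly 1 gene, was above 0 in all 12 samples and had a mean deposited intensity of at least 1.5, and the brightest probe stood for the gene. This gave 49 of the 691 genes with such a probe. The rule leaves out 13 named genes, among them CYN, PSBW and LHB1B2; 11 of these 13 reached the level, and 38 genes remained. The 38 probes are 1.10% of the 3439 probes of the table. The members were thus chosen on their level in these same samples, so their brightness is a description and was not tested.

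All samples are wild-type plants of the ecotype Wassilevskija, from which total RNA was measured. One group of 6 samples is labelled as water, with no duration given. The other group of 6 was given MS medium (Murashige and Skoog salts, a mineral mixture used in plant culture that supplies nitrate among other ions) with 60 mM sucrose for 6 h. The groups therefore differ in salts and sugar together, and possibly in time, and these cannot be told apart. The organ, the age and the number of plants behind each sample were not stated in the labels used here. The p-values therefore reflect only how these samples vary among themselves, which can be technical variation.

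In green plant tissue a small number of messages, mostly for photosynthetic proteins of the plastid, make up a large part of the mRNA. Sucrose acts in plants as a carbon source and as a signal, known for lowering the messages of photosynthesis genes and raising those of carbon storage. Nitrate is a signal too, known for raising the messages of nitrate uptake and assimilation. The best-known abundant leaf messages could not be followed here. Of the 74 genes of 7 lists for photosystems, light harvesting, the Calvin cycle, sugar responses, nitrate assimilation and housekeeping, 6 had a probe of 1 gene. None of these 6 is among the 38: PSAN, PSBW, PSBY, LHB1B2 and PRK are left out by name, and SBPASE was below the level. Of the markers for leaf, root, seed and flower, the leaf marker LHB1B2 alone was measured with a probe of 1 gene, so the organ was not tested against the other 3.

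The label of abundance held for most of the 38 genes in both groups, with 32 having a mean of at least 1.5 in water and also after MS with sucrose. In water, 5 genes were below 1.5 (AT2G38550, AT2G44760, AT1G21730, AT1G13990 and AT3G06200). After MS with sucrose, 1 gene was below it (AT3G26580). Because the mean was taken over both groups, a gene can enter on its level in 1 group, and the split of the members into higher and lower depends in part on that choice. The median over the 12 samples was at least 1.5 for 35 of the 38.

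AT1G21730, a kinesin motor protein gene whose product has been assigned to mitochondria, is a member through 1 sample. Its intensity was 17.8 in sample 4 of MS with sucrose and 0.292 to 0.513 in the other 5, against 0.0471 to 0.106 in water. Without that highest value the mean of the other 11 samples was 0.213, far below the level of the rule. It is thus far below the level in 11 of the 12 samples, and sums below are also given without it. At the edge of the rule, AT1G13990, AT3G06200 and AT3G26580 had means of 1.59, 1.55 and 1.51, and the next genes down, AT2G37510, AT2G19280 and AT1G21500, had 1.4996, 1.49 and 1.40.

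**Figure D1:**
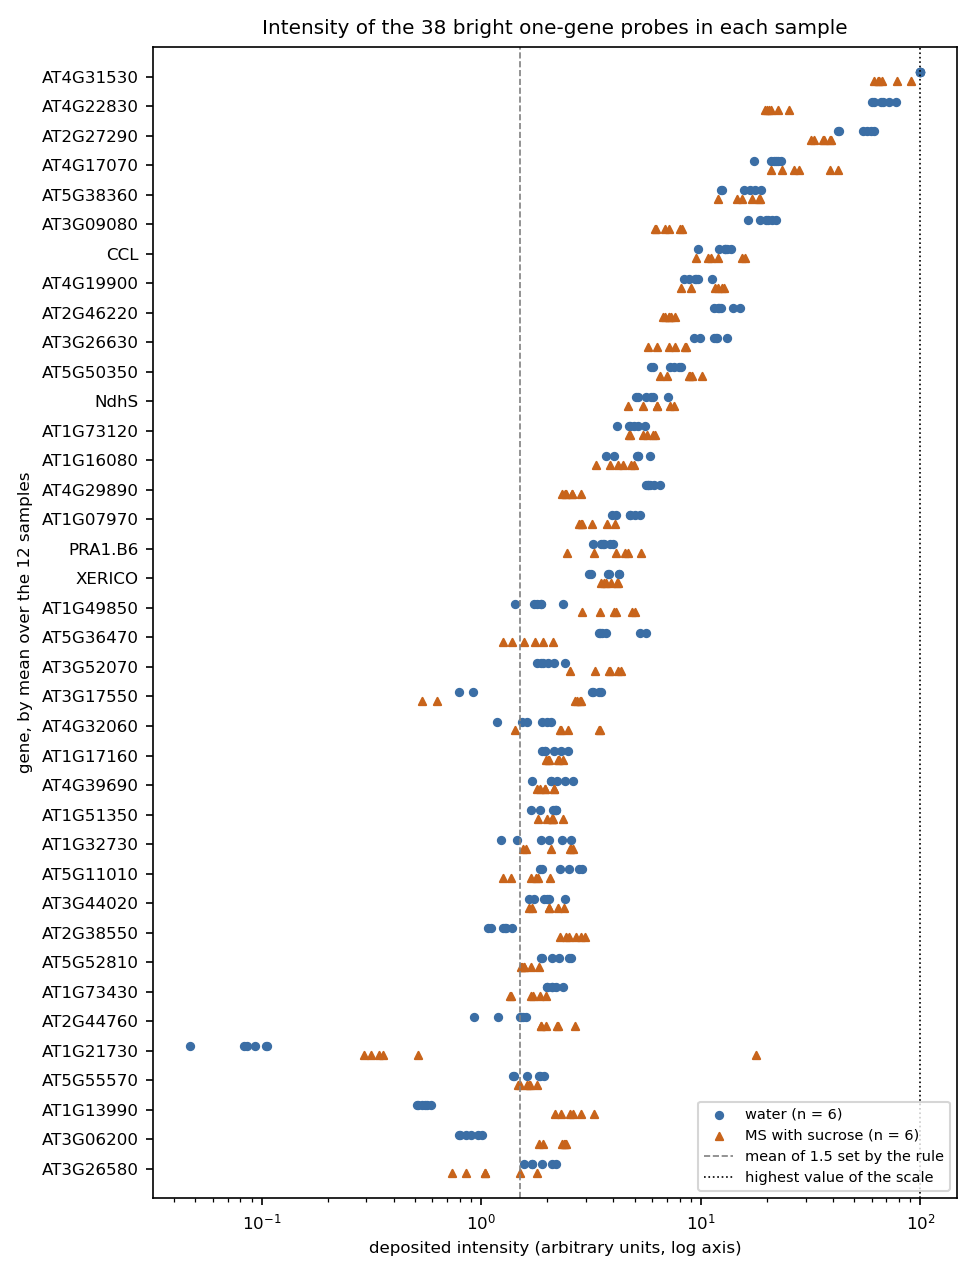
Deposited intensity (arbitrary units, log axis) of the 38 genes, 1 point per sample, with genes ordered by their mean over the 12 samples; circles are water (n = 6), triangles MS with sucrose (n = 6), the dashed line is the mean of 1.5 set by the rule and the dotted line the highest value of the scale. AT4G31530 lies on the dotted line in all 6 water samples, and AT1G21730 has 1 triangle at 17.8 far from its other 5.

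Intensity depends on the spot as well as on the message, so the order of the genes is an order of spots and not of transcript numbers. The values are in arbitrary units and reach a common highest value of 100. Array medians were 0.171 to 0.188 in water and 0.309 to 0.339 after MS with sucrose, so that dim spots in particular read brighter after MS with sucrose, while the summed intensity was close, at 3242 ± 49.0 and 3392 ± 60.3. For this reason most genes are given as deposited intensity and as a log2 difference after quantile normalization, which gives all samples the same distribution. Some are also given as a share of the summed intensity of the array. A value after ± is the standard deviation (SD) over the 6 samples of a group (n = 6). Differences are MS with sucrose minus water, with the standard error (SE) and the adjusted p of limma over all 3439 probes, and 0.05 is the threshold for a call.

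Together the 38 genes, like other bright spots, held a smaller part of the signal after MS with sucrose. Their summed share was 12.3% ± 0.157 in water and 8.91% ± 0.416 after MS with sucrose, a difference of -3.43 percentage points. The water samples ran from 12.1% to 12.5% and the others from 8.48% to 9.45%, so the groups did not overlap. No p is given for this sum, because its members were chosen on these samples. Without AT1G21730 the shares were 12.3% and 8.81%. In deposited intensity the sum went from 400.3 ± 6.21 to 302.3 ± 14.7, a ratio of 0.755. The 214 equally bright probes that carry several genes or none also lost share, moving from 61.0% ± 0.372 to 52.5% ± 0.559. Their deposited sum had a ratio of 0.900. Dim probes of that kind gained share, moving from 19.5% ± 0.467 to 28.9% ± 0.693. The loss of share is thus not particular to the 38 genes.

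Most of that difference lay in AT4G31530 and AT4G22830. Without both, the remaining 36 genes held 7.18% ± 0.252 in water and 6.19% ± 0.174 after MS with sucrose. The deposited sum of these 36 had a ratio of 0.902. The 0.900 of the 214 bright probes keeps their brightest probes, so it compares with the 0.755 of all 38 genes and not with this value. The 4 brightest genes held 60.3% of the members' summed intensity in water and 52.3% after MS with sucrose. The 14 genes called lower after quantile normalization went from a joint 7.35% to 3.87% of the array signal, the 7 called higher from 0.900% to 1.39%, and the 17 not called from 4.09% to 3.65%. The sets of 14 and 7 were picked by the same comparison, so these sums are a description and support no direction.

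**Figure D2:**
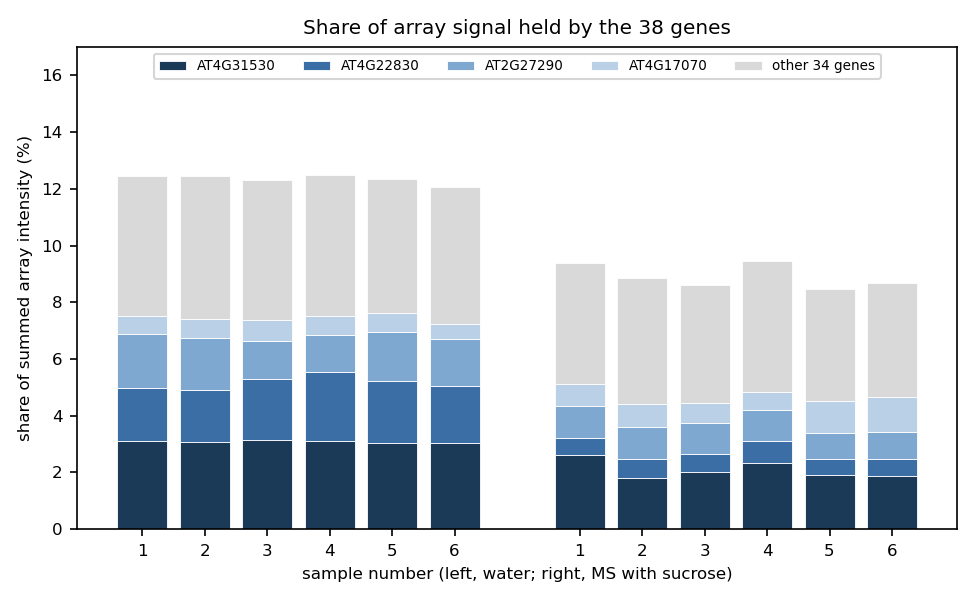
Share of the summed array intensity (%) held by the 38 genes in each of the 12 samples, with the 4 brightest genes and the other 34 stacked from 0. The bars stand at 12.1% to 12.5% in the 6 water samples and at 8.48% to 9.45% in the 6 samples of MS with sucrose, and the segment of AT4G22830 shrinks the most in proportion among the 4 brightest.

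Of the 38 genes, 7 rose and 14 fell after quantile normalization, and 17 did not pass. Over all 3439 probes 37.5% were called, 18.1% as higher and 19.3% as lower. The members were thus called higher about as often as any probe, at 18.4%, and called lower more often, at 36.8%. A similar share of falls, 35.0%, was found among the 214 equally bright probes that carry several genes or none, where 75 were called lower and 66 higher. Rises were more frequent among those 214 than among the members, at 30.8%. The share of falls among the 38 genes was thus close to that of other bright spots, and nothing particular to these genes is read from it. Their median difference was -0.09, against 0.00 over all probes and -0.03 over those 214. Of the 13 genes left out by name, 9 were called higher and 1 lower. The balance of rises and falls among the 38 genes therefore depends in part on that list. Over all 263 equally bright probes, whatever their annotation, 30.4% were called higher and 34.2% lower.

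The count of falls depends on how the arrays are put on 1 scale. Without normalization 8 members were higher and 13 lower, beside 44.2% and 6.89% of all probes. With cyclic loess 10 and 12 were, beside 18% and 18.2%, and as a share of array signal 7 and 13, beside 41.4% and 7.65%. With each array centred on its median it was 4 and 27, beside 14.2% and 37%. The median difference of all probes moved from 0.00 to 0.38, -0.01, 0.34 and -0.29 under these scalings, and that of the members was 0.03, -0.09, -0.04 and -0.64, below all probes each time. For the 214 bright probes of several genes or none it was 0.03, 0.01, -0.04 and -0.64. Of those 214, 34.6%, 33.2%, 36.0% and 64.5% were called lower, and 36.9%, 35.5%, 34.1% and 8.88% higher. The falls under these scalings were thus about as frequent in other bright spots and are not particular to the members. Under all 5 scalings 4 members were called higher and 11 lower. Over all probes 13.6% were called higher and 6.6% lower under all 5, and among the 214 bright probes without a gene of their own 8.88% and 30.8%.

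Same-numbered samples of the 2 groups deviated together, and so did adjacent numbers (1 and 2, 3 and 4, 5 and 6), so the 12 samples may not be independent. With adjacent numbers averaged to 3 against 3 after quantile normalization, 5 members were higher and 7 lower, where 10.1% and 11.7% of all probes were called. Averages of adjacent numbers given without a scale are of this kind. A block for the number on these averages left 3 and 7 (7.62% and 8.55% of all probes). Averages on the deposited scale gave 6 and 8 (34.7% and 4.71%), and averages of shares 6 and 10 (32.0% and 5.44%). The replicate block over the 12 samples gave 9 and 14 (18.6% and 19.7%). The 12 genes called on the averages after quantile normalization are AT1G49850, AT3G52070, AT2G38550, AT1G13990 and AT3G06200 among the rises, and AT4G22830, AT3G09080, AT2G46220, AT3G26630, AT4G29890, AT5G36470 and AT5G52810 among the falls. All of them but AT3G52070 were also called under each of the 5 scalings. The roles named below come from general knowledge, since the tables used here carry no descriptions, and the grouping by role was written after the values were seen.

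Among the plastid proteins, 2 fell, 1 rose and 2 did not pass. AT4G22830, which encodes a protein annotated as similar to Ycf49, named after a plastid reading frame of algae, had the widest measured fall in deposited units of any member. Its intensity was 60.2 to 77.5 in water, with a median of 67.1, and 19.7 to 25.1 after MS with sucrose (median 20.7). The groups are far apart, and the spread within each is narrow. The mean went from 67.5 ± 6.55 to 21.4 ± 2.05, a difference of -1.21 after quantile normalization (SE 0.12; limma, adjusted p = 1.43e-05). As a share of array signal it was at 2.08% and 0.632%, a log2 difference of -1.72 (limma, adjusted p = 5.76e-08). The fall was present within each pair of adjacent numbers, at ratios of 0.356, 0.314 and 0.287.

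AT3G26630, a member of the pentatricopeptide repeat family, whose proteins bind organelle RNA, fell more modestly. Water samples lay between 9.32 and 13.2, with a median of 11.6, and treated samples between 5.75 and 8.56, with a median of 7.41. The groups did not overlap. The difference was -0.60 (SE 0.11; limma, adjusted p = 0.00108). On averages of adjacent numbers it was close to the threshold (limma, adjusted p = 0.0484).

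AT2G38550, of a family of membrane proteins linked to fatty acid export from plastids, rose. It was at 1.08 to 1.38 in water, with a median of 1.27, and at 2.29 to 2.98 after MS with sucrose (median 2.61). Every treated sample was above every water sample. The difference was 0.87 (SE 0.06; limma, adjusted p = 8.93e-07), and the ratio within adjacent numbers was 2.04, 2.17 and 2.20.

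NdhS and CCL did not pass. NdhS, a subunit of the plastid NADH dehydrogenase-like complex that takes electrons from ferredoxin, was at 5.07 to 7.11 in water and 4.64 to 7.58 after MS with sucrose. The groups overlap, and the difference was 0.07 (SE 0.14; limma, adjusted p = 0.743). Its ratio within adjacent numbers ran from 1.45 in numbers 1 and 2 through 1.06 to 0.793 in numbers 5 and 6, so these pairs point in opposite directions. CCL (AT3G26740, CCR-like), a light-regulated and clock-controlled gene, was at 12.4 ± 1.43 and 12.5 ± 2.61, a difference of 0.10 (SE 0.12; limma, adjusted p = 0.56). NdhS and CCL were each called lower when arrays were centred on their medians, at -0.57 and -0.68.

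The 8 enzymes held 3 that fell, 1 that rose and 4 that did not pass. AT4G31530, which encodes a protein with an NAD(P)-binding Rossmann fold, was the brightest member. It stood at the highest value of the scale, 100, in all 6 water samples, so the water level has only a lower bound and no measured spread. After MS with sucrose it was at 61.2 to 90.5, with a median of 66.0, below that limit in every sample. In deposited intensity its mean was at least 1.41-fold lower after MS with sucrose, taking 100 as the least the water level can be. The fit gave -0.23 (SE 0.07; limma, adjusted p = 0.0144), where the missing spread in water makes the SE too small. It did not pass with cyclic loess (-0.10) or on averages of adjacent numbers after quantile normalization (limma, adjusted p = 0.191). The remaining scalings called it lower, at -0.51 for deposited values, -0.57 for the share and -1.18 with arrays centred on their medians. Averages of adjacent numbers passed as a share (limma, adjusted p = 0.0181) and as deposited values (limma, adjusted p = 0.0122). These fits rest on the same water values at 100.

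AT4G29890, similar to choline monooxygenase, an enzyme of glycine betaine synthesis in spinach and its relatives, had the smallest adjusted p of the 38. It was at 5.63 to 6.54 in water, with a median of 5.79, and at 2.33 to 2.85 after MS with sucrose (median 2.51). The spread within each group was small and the groups are well apart. The difference was -1.26 (SE 0.06; limma, adjusted p = 8.14e-08), with ratios of 0.448, 0.442 and 0.394 within adjacent numbers.

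AT5G52810, needed for making pipecolic acid, a signal of systemic immunity in plants, fell as well. Its water samples ran from 1.87 to 2.56 and its treated samples from 1.51 to 1.83, with medians of 2.17 and 1.56. The groups came close but did not overlap. The difference was -0.61 (SE 0.07; limma, adjusted p = 5.5e-05).

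AT3G06200, of the guanylate kinase family, which turns GMP into GDP, was the enzyme that rose. It was at 0.794 to 1.01 in water, with a median of 0.874, and at 1.82 to 2.44 after MS with sucrose (median 2.35). Treated samples were all higher than water samples. The difference was 0.98 (SE 0.07; limma, adjusted p = 9.37e-07).

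The remaining enzymes did not pass. AT5G38360, of the alpha/beta hydrolase fold, had 15.7 ± 2.72 in water and 16.0 ± 2.56 after MS with sucrose. AT4G19900, of an alpha-1,4-glycosyltransferase family, had 9.51 ± 0.975 and 10.99 ± 1.93, a difference of 0.27 (limma, adjusted p = 0.107). It was called higher with cyclic loess (0.35), called lower under median centring (-0.48), and called higher without sample 4 of MS with sucrose (limma, adjusted p = 0.0453), so its direction rests on the scaling. AT1G17160, a ribokinase-type sugar kinase, was at 2.12 ± 0.235 and 2.15 ± 0.156.

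AT3G17550, of the haloacid dehalogenase-like phosphatases, followed the sample number more than the treatment. Samples 1 and 2 were at 0.913 and 0.796 in water and at 0.630 and 0.536 after MS with sucrose. The other 4 numbers were at 3.19 to 3.50 in water and 2.69 to 2.86 after MS with sucrose. Numbers 1 and 2 are thus low in both groups, and within each number the treated sample was the lower one, in 6 of 6 pairs. With the 12 samples taken as independent the difference was -0.53 (SE 0.60; limma, adjusted p = 0.52), and with the sample number as a replicate block it passed (limma, adjusted p = 0.0242), though not with adjacent numbers averaged and blocked (limma, adjusted p = 0.153). What sets numbers 1 and 2 apart is not given in the labels and was not tested.

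**Figure D3:**
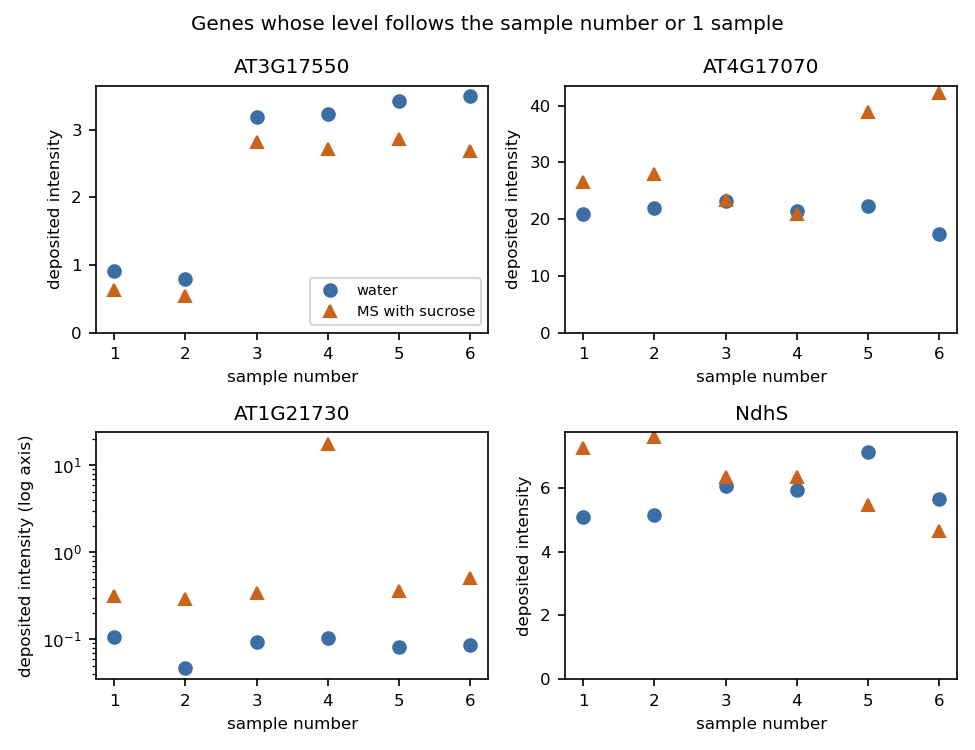
Deposited intensity against sample number for 4 genes, with circles for water and triangles for MS with sucrose, 1 sample per point (log axis for AT1G21730). AT3G17550 is low in numbers 1 and 2 of both groups, AT4G17070 is high in numbers 5 and 6 of MS with sucrose, AT1G21730 has a single value of 17.8 in number 4, and NdhS is higher than water in numbers 1 and 2 and lower in numbers 5 and 6.

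Of the 3 mitochondrial proteins 1 fell. AT4G39690, the plant counterpart of the inner-membrane organizer Mic60, had a mean of 2.18 ± 0.310 in the water group and 1.98 ± 0.144 in the treated group, and their ranges overlap. Its difference of -0.26 (SE 0.07; limma, adjusted p = 0.0109) passed after quantile normalization and not as a share of array signal (-0.19; limma, adjusted p = 0.0717) or on averages of adjacent numbers (limma, adjusted p = 0.0702). AT4G32060, a calcium-binding regulator of mitochondrial calcium uptake, had 1.72 ± 0.338 and 2.57 ± 0.778. It was higher in 6 of 6 same-numbered pairs, with overlapping groups and a difference of 0.38 (limma, adjusted p = 0.176), and it passed with the sample number as a replicate block (limma, adjusted p = 0.0332) but not with that block on averages of adjacent numbers (limma, adjusted p = 0.168). For the kinesin gene AT1G21730 the difference was 1.84 (SE 0.92; limma, adjusted p = 0.144). Without sample 4 of MS with sucrose it was 0.87 (limma, adjusted p = 0.00116), so the call was lost with that sample in the fit. As a share of array signal the difference was 2.30 (limma, adjusted p = 0.0451), and it did not pass without any 1 of the 6 water samples or sample 6 of MS with sucrose (limma, adjusted p from 0.0590 to 0.0821).

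Between the RING-finger proteins, which commonly act in attaching ubiquitin, the genes differed. AT1G49850 rose from 1.42 to 2.36 in water, with a median of 1.83, to 2.88 to 5.01 after MS with sucrose (median 4.07). No treated sample was as low as any water sample. The difference was 1.03 (SE 0.15; limma, adjusted p = 0.000228), but missed the threshold under a block on averages of adjacent numbers (limma, adjusted p = 0.0752). XERICO, known for raising abscisic acid levels when overexpressed, was at 3.73 ± 0.515 and 3.85 ± 0.288, a difference of 0.04 (SE 0.11; limma, adjusted p = 0.804).

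In membrane traffic, AT1G73430, a subunit of the conserved oligomeric Golgi complex, fell by 0.55 on the log2 scale (SE 0.12; limma, adjusted p = 0.00393). It lay between 1.98 and 2.36 in water and between 1.36 and 1.98 after MS with sucrose, and the groups touched without overlap. With adjacent numbers averaged it did not pass (limma, adjusted p = 0.0817). PRA1.B6, of the prenylated Rab acceptor family, had 3.64 ± 0.262 and 4.07 ± 1.04. Its treated samples were more scattered than its water samples, at 2.46 to 5.34 against 3.24 to 3.97, and the difference was 0.07 (limma, adjusted p = 0.803).

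Of the 3 genes for proteins built from repeats, 2 fell. AT3G09080, with WD40 repeats, was at 16.4 to 21.9 in water, with a median of 20.02, and at 6.16 to 8.21 after MS with sucrose (median 7.003). The groups are far apart, and the ratio within adjacent numbers was steady, at 0.365, 0.339 and 0.379. The difference after quantile normalization was -1.35 (SE 0.10; limma, adjusted p = 1.43e-06). As a share of array signal AT3G09080 went from 0.607% to 0.210%, a log2 difference of -1.52 (limma, adjusted p = 8.23e-08). AT3G26580, with tetratricopeptide repeats, had 1.86 ± 0.243 and 1.16 ± 0.402, a difference of -0.99 (SE 0.21; limma, adjusted p = 0.00322) that missed the threshold once adjacent numbers were averaged (limma, adjusted p = 0.0754). Its groups overlap through sample 2 of MS with sucrose, which stood at 1.79, above the lowest water sample at 1.57. AT1G51350, with armadillo-type repeats, was at 2.04 ± 0.211 and 2.08 ± 0.178 and did not pass. In RNA processing, AT5G11010, related to the Clp1 family of polynucleotide kinases, had a difference of -0.66 (SE 0.14; limma, adjusted p = 0.00323), and missed the threshold once adjacent numbers were averaged (limma, adjusted p = 0.0769). Among its pairs of adjacent numbers the ratio was lowest, 0.461, in numbers 5 and 6.

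No role is given for the remaining 14 genes, of which 4 rose, 4 fell and 6 did not pass. AT1G13990 had the largest rise that passed. It was at 0.510 to 0.589 in water, with a median of 0.546, and at 2.17 to 3.28 after MS with sucrose (median 2.58). Water samples were nearly equal and all treated samples were well above them. The mean was 4.81-fold higher in deposited intensity, and the difference was 1.82 after quantile normalization (SE 0.10; limma, adjusted p = 2.49e-07).

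AT3G52070 rose from 2.02 ± 0.223 to 3.67 ± 0.661, a difference of 0.72 (SE 0.12; limma, adjusted p = 0.000876), and missed the threshold under median centring (0.15) and under a block on averages of adjacent numbers (limma, adjusted p = 0.116). AT2G44760 rose from 1.38 ± 0.263 to 2.14 ± 0.302, a difference of 0.39 (limma, adjusted p = 0.0322). Both had groups that did not overlap, but AT2G44760 did not pass without sample 4 of MS with sucrose (limma, adjusted p = 0.0642) or on averages of adjacent numbers (limma, adjusted p = 0.104), and it was at -0.05 under median centring. Its averages passed on the deposited scale (limma, adjusted p = 0.0193) and as a share (limma, adjusted p = 0.0305).

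AT4G17070 rose after quantile normalization, by 0.72 (SE 0.17; limma, adjusted p = 0.00682), and was at -0.21 under median centring. Its water samples ran from 17.4 to 23.2, and treated samples 1 to 4 from 20.8 to 28.0. Treated samples 5 and 6 stood well above the rest, at 38.9 and 42.2. The ratio within adjacent numbers was 1.27, 0.992 and 2.04, so numbers 3 and 4 showed no rise. It did not pass as a share of array signal (0.39; limma, adjusted p = 0.0695) or on averages of adjacent numbers (limma, adjusted p = 0.0869).

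Among the falls without a given role, AT5G36470 had the largest of all 38 genes after quantile normalization. It was at 3.43 to 5.65 in water, with a median of 3.63, and at 1.26 to 2.11 after MS with sucrose (median 1.67). In water, numbers 1 and 2 stood above the other 4, and the groups did not overlap. The difference was -1.40 (SE 0.19; limma, adjusted p = 0.00015).

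AT2G46220 fell by 0.79 on the log2 scale (SE 0.09; limma, adjusted p = 3.36e-05). It was at 11.4 to 15.02 in water and at 6.73 to 7.64 after MS with sucrose, a tight group well below the lowest water sample. AT1G07970 was at 4.64 ± 0.511 and 3.25 ± 0.535, with groups that overlap and a difference of -0.51 (limma, adjusted p = 0.0056), and it did not pass on averages of adjacent numbers (limma, adjusted p = 0.101). Its averages as a share were just under the threshold (limma, adjusted p = 0.0491). AT5G55570 was at 1.68 ± 0.237 and 1.62 ± 0.116. Its difference of -0.28 (limma, adjusted p = 0.0206) came with overlapping groups and was not called as a share of array signal (-0.10), with the replicate block (limma, adjusted p = 0.0716) or on averages of adjacent numbers (limma, adjusted p = 0.162).

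AT2G27290, the third brightest member, was called or not depending on the scale. It was at 42.0 to 61.4 in water, with a median of 55.7, and at 31.9 to 39.3 after MS with sucrose (median 36.1). The groups did not overlap in deposited intensity. Its share of array signal went from 1.63% to 1.06%, a log2 difference of -0.61 (limma, adjusted p = 0.0005). After quantile normalization the difference was -0.07 (SE 0.14; limma, adjusted p = 0.744). With values at 100 taken as missing, the quantile fit gave -0.44 (limma, adjusted p = 0.00251), so the lack of a call depends on those values. AT2G27290 was also called lower on the deposited scale (-0.55) and under median centring (-1.22), and not with cyclic loess (-0.22).

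**Figure D4:**
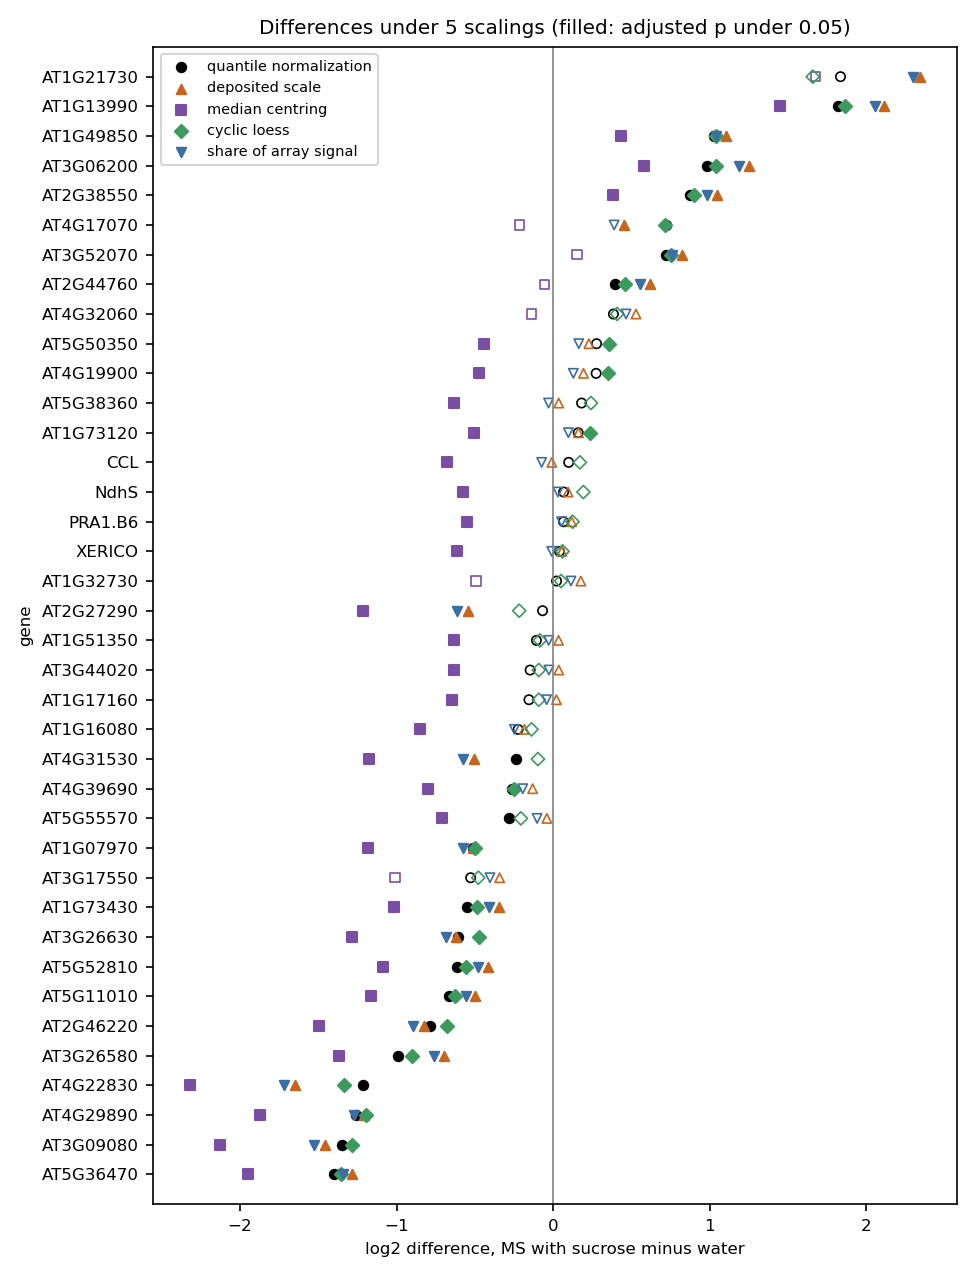
Log2 difference, MS with sucrose minus water, of the 38 genes under 5 scalings, with filled symbols for adjusted p under 0.05 by limma and genes ordered by the difference after quantile normalization. Under every scaling 4 genes (AT1G13990, AT1G49850, AT3G06200 and AT2G38550) are filled above 0 and 11 are filled below 0; squares, for median centring, lie to the left of the other symbols for all genes but AT1G21730.

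The other 5 members without a given role did not pass after quantile normalization. AT5G50350 was at 7.14 ± 0.933 and 8.41 ± 1.36, a difference of 0.28 (limma, adjusted p = 0.144). It was called higher with cyclic loess (0.36) and without sample 1 of MS with sucrose (limma, adjusted p = 0.0289), and lower under median centring (-0.44). AT1G73120 was at 4.89 ± 0.480 and 5.48 ± 0.6253. It was called higher with cyclic loess (0.23) and with the replicate block (limma, adjusted p = 0.0469), and lower under median centring (-0.51). The block on averages of adjacent numbers gave no call (limma, adjusted p = 0.153). AT1G16080 (4.86 and 4.25 in mean intensity), AT3G44020 (1.96 and 2.01) and AT1G32730 (1.92 and 2.16) had overlapping groups. In AT1G32730 numbers 5 and 6 were the lowest of both groups, at 1.46 and 1.23 in water and 1.55 and 1.60 after MS with sucrose.

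Groups of deposited intensity did not overlap for 7 genes with MS with sucrose higher and for 10 with it lower, against 29.5% and 4.36% of all probes, and overlapped for 21. Among the 214 bright probes without a gene of their own, 56 were higher without overlap, 52 were lower without overlap, and 106 overlapped. Falls without overlap were thus frequent in other bright spots too and are not particular to the members. Of the 14 genes that fell, 12 were lower in 6 of 6 same-numbered pairs, and of the 7 that rose, 6 were higher in 6 of 6. These genes were picked by the same comparison on the same samples, so the pair counts are a description and support no direction. The members varied less between samples than the probes as a whole. The median coefficient of variation of deposited intensity was 12.7% in water and 15.3% after MS with sucrose, against 19.1% and 31.0% over all probes, and against 12.8% and 13.9% for the 214 bright probes without a gene of their own.

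Between pairs of adjacent numbers, averaged over both groups, the level of a member varied by a median of 0.29 on the log2 scale, and by over 1 for AT3G17550 and AT1G21730. All 38 are protein-coding in the TAIR10.1 gene table, and they lie on all 5 chromosomes (10, 5, 8, 8 and 7 genes on chromosomes 1 to 5). Their annotated gene length had a median of 1884 bp, against 2169 bp for the other genes with a probe of 1 gene, and ran from 604 to 7466 bp.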

How the data were processed

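Total RNA of 12 samples, 6 of water and 6 of MS with sucrose, was measured on arrays. The deposited values are linear intensities for 3439 probes, with an exact 0 in 13.6% of values and 2 to 8 probes per sample at the highest value of 100. How the arrays were background corrected and scaled, and their type, was not stated in the labels. Precision is limited by having 6 arrays a group. Of the probes, 692 carry 1 gene, 870 several and 1877 none; 690 of the 692 probes with 1 gene matched the TAIR10.1 gene table, which supplied symbols, chromosomes and lengths.

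Values were used as log2(intensity + 0.0718), the offset being the 10th percentile of values above 0, and quantile normalized. Every probe was fitted with limma 3.58.1 in R 4.3.3 (lmFit, eBayes with trend, two-sided, Benjamini-Hochberg over 3439 probes, threshold 0.05). A fold change on this scale understates changes of dim probes. Shares are percents of the summed deposited intensity of an array, fitted the same way with an offset of 0.00219%. Figures used matplotlib 3.10.9. The fit was tested on simulated data.

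Sample numbers pair the samples by the data, not the labels: deviations from the group means correlated at 0.174 to 0.390 in the 6 same-numbered pairs, across probes, which are not independent replicates. Adjacent numbers within a group correlated at 0.121 to 0.309. Alternatives covered scaling, offset, zeros, ceiling, dim probes, the replicate block, averages of adjacent numbers, robust variance, the level rule and each sample left out.

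The members, lists and role groups were chosen with earlier results of these data known. Genes described in full are the 12 brightest, the 6 largest rises and 6 largest falls past the threshold, those on which the quantile and share fits differ, those at the highest value, and the 3 nearest the level; the other members are given more briefly, and where a sentence singles one out it was chosen after its values were seen. No sequences of these genes were used here.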

Additional observations from a re-analysis of the deposited data

Results flagged for a closer look

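In 77 sets of 6 samples (the deposited intensities of the 38 genes in each group, without the water set of AT4G31530 that is constant, and the summed share), 1 set had a sample standing apart. By chance about 1 in 20 sets would, or 3.85 of them. It was AT1G21730 after MS with sucrose, whose highest sample, number 4 at 17.8, stood 0.987 of the range above the next, at 0.513. Water sample 4 of the same gene was at 0.105, close to the other water samples.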

How the results depend on the processing

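The number of members called higher, 7, was 4 with median centring, 3 with adjacent numbers averaged under a replicate block, and 3 among 28 members at a mean of at least 2. The number called lower, 14, was 27 with median centring, 7 with adjacent numbers averaged with or without the replicate block, and 8 with these averages on the deposited scale. The summed share difference of -3.43 points was -2.44 without AT4G31530. With the replicate block over 12 samples 9 were higher and 14 lower, and with a median of at least 1.5 as the rule 5 and 14 of 35. Leaving out each sample in turn gave 6 to 8 higher and 14 lower after quantile normalization, 6 to 8 and 13 to 14 as a share, and -3.54 to -3.35 points for the summed share. The cause of these shifts was not tested.

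Of the log2 differences of the described genes under an alternative, 927 kept direction and side of the threshold, 51 lost a call, 22 gained one and 33 changed sign. All sign changes were in 7 genes. Under median centring AT4G17070 was at -0.21, AT5G38360 at -0.63, CCL at -0.68, AT4G19900 at -0.48, AT5G50350 at -0.44 and NdhS at -0.57. As a share AT5G38360 was at -0.030 and CCL at -0.074, also with adjacent numbers averaged, and on the deposited scale CCL was at -0.0089, also averaged. With ceiling values missing CCL was at -0.017 and NdhS at -0.012. Without numbers 1 and 2 CCL was at -0.065, NdhS at -0.15 and AT2G27290 at 0.010, and AT2G27290 was at 0.10 without numbers 5 and 6. In the share fit with ceiling values missing AT4G19900 was at -0.042, AT5G50350 at -0.0071 and NdhS at -0.14, and with the sum taken without the 25 brightest probes at -0.13, -0.094 and -0.23. Leaving out each sample in turn, AT2G27290 ran from -0.14 to 0.0060 after quantile normalization, and in the share fit AT5G38360 from -0.097 to 0.054, CCL from -0.15 to 0.0033 and NdhS from -0.027 to 0.11. Alternatives that left out adjacent numbers, used averages on other scales, dropped AT1G21730 or used the median were chosen after seeing the data.

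Values at 100 give bounds, dim values carry the offset, and the scaling by the authors is unknown.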
